A study of Homo sapiens with 4 samples.

Results

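Circular RNAs that arise from solute carrier genes were taken from a nanopore survey of circular RNA in 4 libraries of the human breast cancer line MDA-MB-468, which is an established line. A circle was a member when the table of called circles did not type it antisense and named at least 1 host symbol of the form SLC, digits, A or B, digits, or SLCO and a digit. The table listed 2017 such circles among 211599 in all, and 1794 of them had at least 1 count, out of 190152 circles with a count. They named 148 host genes, of which 146 had a count, while 370 symbols of the RefSeq gene table have that form. Together they held 20121 of 1702290 counts, or 1.18%.

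All 4 libraries came from a radioresistant derivative of the line that had received 50 Gy in total, in fractions. The 2 control libraries carried a control hairpin (shCtrl), and the 2 knockdown libraries stably expressed one that targets HNRNPL, a splicing regulator. The extraction notes name shHNRNPL-1, while the knockdown library names read sh45, and both were taken as 1 hairpin. The control library names read RR and name no hairpin, so the control hairpin rests on the sample titles. No unirradiated parent is among these groups, so both share the radioresistant state. The groups differ only in the hairpin as far as the labels say, and 0 rows of the table named HNRNPL, so the knockdown rests on the labels. Whether the replicates came from separate cultures is not stated, and p-values then measure the spread between these libraries.

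Solute carriers are membrane proteins that move ions, amino acids, sugars, metals, nucleotides and cofactors across the plasma membrane and the membranes of organelles. They work as exchangers, cotransporters or uniporters, and in tumours they are known for supplying nutrients and for exporting acid. A circular RNA forms when a splice donor is joined to an acceptor upstream of it, so that the exons between them close into a ring that has no ends. HNRNPL, an RNA-binding protein, prefers CA-rich RNA and is known to change which exons are kept and which are circularised. A circle contains sequence of its host gene, and its count says nothing by itself about the linear messenger RNA or the protein.

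The controls held 472428 and 556578 counts (replicates 1 and 2) and the knockdown libraries held 282737 and 390547. Levels below are counts per 100000 counts of a library, and coordinates are those of the deposited table on GRCh38.p14. A count of 0 allows up to 3 counts, which is between 0.539 and 1.06 per 100000 in these libraries. Control replicate 1 stood apart from the other libraries: 19.7% of all its counts were in circles typed intron and 6.79% in circles typed antisense, against 9.93% to 10.6% and 2.38% to 2.69% in the other 3. Deviations between the 2 controls were larger than between the 2 knockdown libraries, with a mean chi-square per circle of 18.01 against 2.28, and no pair was counted as 1 library. Circles of EPCAM, EGFR and CDH1, markers of the epithelial line, were counted in all 4 libraries. Of the other epithelial markers, KRT8 and KRT18 were at 0, and KRT5 and KRT7 had 2 and 3 counts, all in control replicate 1. The leukocyte, fibroblast and endothelial markers PTPRC, CD3E, COL1A1, PDGFRB, PECAM1 and VWF were at 0 in every library. The summed epithelial markers were at 35.6 and 18.7 per 100000 in the controls and 12.7 and 12.03 in the knockdown libraries. Of their counts, EGFR held 115 of 168 and 52 of 104 in the controls and 12 of 36 and 21 of 47 in the knockdown libraries. The part of these markers in the results was not tested.

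Solute carrier circles made up a smaller share of the counts in the knockdown libraries, and most of that difference lay in SLC4A7 and SLC45A4. Their summed level was 1340 and 1261 per 100000 in the controls and 971 and 1032 in the knockdown libraries. The knockdown libraries lay below both controls. The means were 1300 ± 55.7 and 1001 ± 43.4 (SD, n = 2 each), a ratio of 0.770 with an exact two-sided permutation p of 0.33, which is the smallest that 2 libraries against 2 allow. Without SLC4A7 and SLC45A4 the levels were 766 and 659 in the controls and 637 and 699 in the knockdown libraries, and the groups overlapped. Levels are shares of library counts, so a rise of other circles would also lower them. In bulk libraries that case, fewer cells with a circle and fewer copies of it per cell cannot be told apart.

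**Figure D1:**
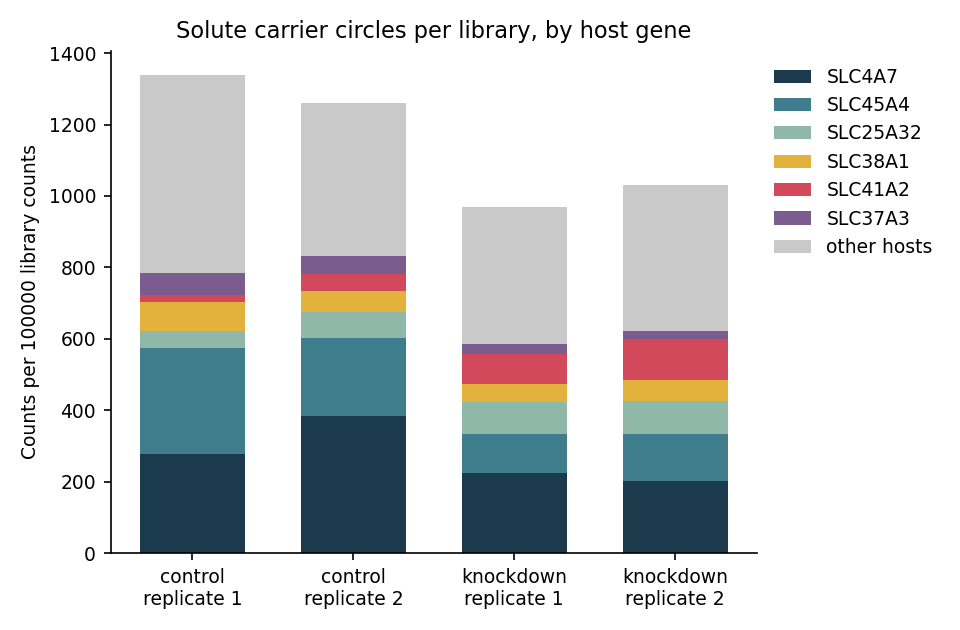
Stacked bars give the counts of solute carrier circles per 100000 library counts in each of the 4 libraries, split into the 6 hosts with the most counts and all other hosts. The bars reach 1340 and 1261 in the controls and 971 and 1032 in the knockdown libraries, and the segments of SLC4A7 and SLC45A4, the largest of the named hosts, are shorter in both knockdown libraries than in either control.

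A few hosts held most of the counts. SLC4A7 gave 24.2% of all solute carrier counts, SLC4A7 and SLC45A4 together gave 41.3%, and the 12 largest hosts gave 75.8%. At the other end, 54 hosts had between 1 and 9 counts in total. Circles were as uneven: 1049 of the 1794 were seen in 1 library, 156 were seen in all 4, and 209 reached 10 counts, the minimum for a test. Those 209 held 77.3% of the counts.

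Exon circles numbered 1174 and intron circles 620 among those with a count. Their median lengths were 1012 and 1567 nt, within a range of 221 to 8509 nt and up to 29 exons. The 276 circles made of a single exon held 24.8% of the counts, largely through SLC45A4. Of solute carrier counts, circles typed intron held 15.9% and 6.57% in the controls and 8.13% and 7.87% under knockdown. Control replicate 1 was high, and the knockdown values lay between those of the controls (exact permutation p = 1). The median length weighted by counts was 1103 and 1142 nt in the controls and 1142 and 1012 nt in the knockdown libraries, which overlapped (exact permutation p = 1). Thinned to equal depth, the controls showed 872 and 550.1 different solute carrier circles and the knockdown libraries 541 and 587, a ratio of 0.793 (exact permutation p = 0.667). That ratio was 1.03 without control replicate 1.

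**Figure D2:**
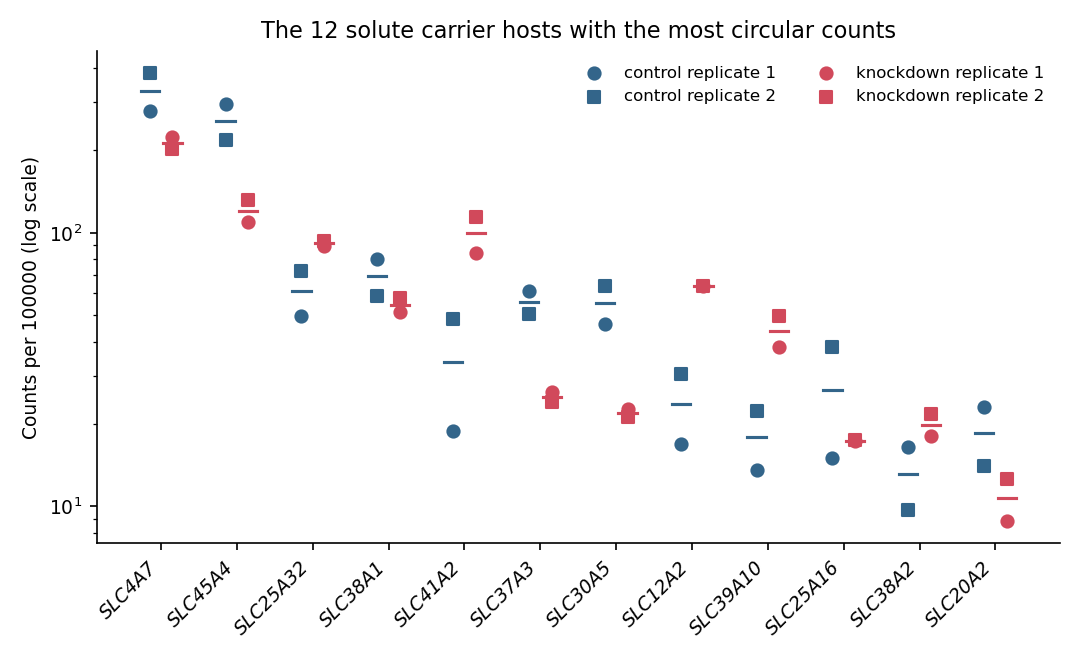
Points give the level of each of the 12 largest hosts in each library, in counts per 100000 on a log axis, with circles for replicate 1, squares for replicate 2 and short lines for group means. Both knockdown points lie below both control points for SLC4A7, SLC45A4, SLC38A1, SLC37A3, SLC30A5 and SLC20A2, above them for SLC25A32, SLC41A2, SLC12A2, SLC39A10 and SLC38A2, and overlap them for SLC25A16.

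Whether HNRNPL knockdown goes with another output of circles from each host was tested on counts summed per host gene with edgeR's quasi-likelihood test, TMM normalization and Benjamini-Hochberg adjustment over all host genes. Of the 92 solute carrier hosts with at least 10 counts, 0 passed an adjusted p of 0.05, where 0.442% of all 8379 host genes did. At an unadjusted p under 0.05, 8 members were higher in the knockdown libraries (7.58% of all host genes) and 8 were lower (6.19%). DESeq2 called 3 members (2.02% of all host genes) and limma voom 5 (4.81%), all higher. Other count filters called 1 member (1.75% with at least 5 counts in 2 libraries, 2.27% with at least 40 counts) or 6 (2.49% with no filter), and the replicate number as a block called 6 (3.58%). The median log2 fold change was -0.69 over the 92 members and -0.26 over all host genes tested, with 26 members above 0 and 66 below (40.4% and 59.6% of all host genes). With 5 hosts that were at 0 in both knockdown libraries set to their bound, the member median was -0.62.

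The calls depended on which control library was present. Without control replicate 1, 20 of 64 tested members passed (25.1% of all host genes), and without control replicate 2, 35 of 82 passed (36.3%). Without either knockdown library 0 passed. The member median was -0.03 without control replicate 1. A fit that leaves 1 library in a group takes that library to vary like the other group. Scaling also moved the zero point: the median of all host genes was -0.26 with TMM, -0.58 with library-size scaling and -0.17 with DESeq2 size factors, so a fold change near these values is not a difference from the typical host. With library-size scaling 7 members were higher (5.37% of all host genes) and 13 lower (11.4%) at an unadjusted p under 0.05. With DESeq2 size factors 8 were higher (7.98%) and 6 lower (4.79%).

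Among the 42 hosts with at least 40 counts, both knockdown libraries lay above both controls in 11 (26.2%, against 19% of all host genes with that many counts) and below both in 20 (47.6%, against 39.8%). These comparisons use counts per 100000 without TMM. The fold changes of the fit are shifted upward relative to them.

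Carriers of inorganic ions and regulators of pH gave the most counts of any class, and SLC4A7 held 76.0% of them. Of 56 such genes 24 had circles and 17 were tested. At an unadjusted p under 0.05, 1 was higher and 1 lower (7.58% and 6.19% of all host genes). A log2 fold change below 0 was found in 15 (59.6% of all host genes), and the median was -0.85 (-0.26 over all host genes). No class was tested against all host genes. SLC4A7 encodes an electroneutral sodium bicarbonate cotransporter that brings base into the cell. Its 122 circles with a count summed to 279 and 383 per 100000 in the controls and 224 and 202 in the knockdown libraries. Both knockdown libraries were below both controls, but the log2 fold change of -0.35 ± 0.44 (SE; adjusted p = 0.749) was within the spread between replicates, and leaving out control replicate 1 or 2 gave -0.61 or 0.18. SLC4A7 ranked 38 among 14794 named genes by count.

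The SLC4A7 circles were long and shared their ends. The gene lies on the minus strand at chr3:27372723-27484384 (GRCh38.p14), and 13 circles that start at the acceptor at position 27424152 held 63.2% of its counts. Another 19 circles from the acceptor at 27452498 held 24.8%. The share of the first acceptor was 64.0% and 63.2% in the controls and 63.5% and 61.8% in the knockdown libraries, so it moved little between libraries.

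The largest circle, at chr3:27383153-27424152, joined 16 exons into 2269 nt and had 418 and 620 counts in the controls and 164 and 216 in the knockdown libraries. Its level was lower in both knockdown libraries (log2 fold change -0.87 ± 0.29 SE, adjusted p = 0.279). The circle of 17 exons and 2377 nt had 256 and 385 counts against 134 and 154, that of 22 exons and 3095 nt had 139 and 233 against 81 and 99, and that of 18 exons and 2507 nt had 101 and 254 against 87 and 83. Per 100000, the knockdown values of the first 2 of these lay below both controls, and those of the 18-exon circle overlapped them. The log2 fold change of the 18-exon circle was -0.37 ± 0.40 (SE; adjusted p = 0.658) and 0.11 without control replicate 2. Among the 32 SLC4A7 circles tested, 28 had a log2 fold change below 0 and 4 above 0. Of all circles tested, 60.3% were below 0. The SLC4A7 circles overlap and share ends, so they are not independent.

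A circle of 12 exons and 1761 nt, at chr3:27379249-27404963, was named after its values were seen because it went the other way. It had 7 and 36 counts in the controls and 28 and 30 in the knockdown libraries, above both controls per 100000 (log2 fold change 1.14 ± 0.61 SE, adjusted p = 0.437). It uses the same donor as the circles of 17 and 22 exons but a nearer acceptor, at 27404963. The 4 circles from that acceptor held 0.683% and 1.73% of SLC4A7 counts in the controls and 4.90% and 4.19% in the knockdown libraries. edgeR's test of unequal change among the circles of a host gave an adjusted p of 0.251 for SLC4A7.

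**Figure D3:**
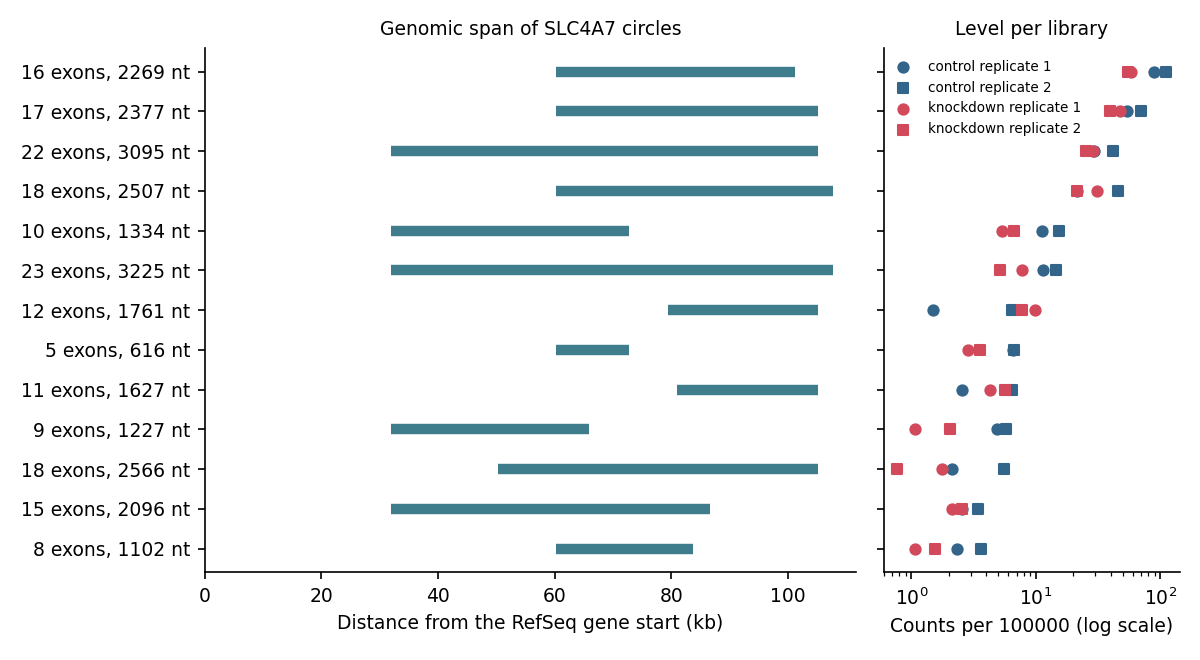
The left panel draws the genomic span of the 13 SLC4A7 circles with at least 40 counts as distance in kb from the RefSeq gene start, ordered by count, and the right panel gives their level in each library in counts per 100000 on a log axis. Most spans start near the same 2 positions, and the circle of 12 exons is the one whose knockdown points lie to the right of both control points.

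SLC12A2 encodes the cotransporter of sodium, potassium and chloride that loads cells with chloride. Its circles summed to 16.9 and 30.5 per 100000 in the controls and 64.0 and 63.8 in the knockdown libraries. The knockdown libraries were alike and above both controls, with a log2 fold change of 1.70 ± 0.43 (SE; adjusted p = 0.165). The adjusted p was under 0.05 with no filter, DESeq2, voom and the replicate block. It was above 0.05 in the other fits of all 4 libraries. Leaving out control replicate 1 or 2 gave a log2 fold change of 1.30 or 2.49. Single circles of the gene had unlike values. The circle of 8 exons and 955 nt at chr5:128138597-128152805 had 13 and 33 counts in the controls and 84 and 125 in the knockdown libraries, the smallest adjusted p of any member circle (log2 fold change 2.80 ± 0.41 SE, adjusted p = 0.0949). It made up 16.3% and 19.4% of SLC12A2 counts in the controls and 46.4% and 50.2% in the knockdown libraries. In contrast, the circle of 6 exons and 725 nt at chr5:128131067-128141981 had 13 and 24 counts against 10 and 15, and its levels overlapped between the groups (log2 fold change 0.03 ± 0.46 SE, adjusted p = 0.982).

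A circle that spans exactly 1 intron of SLC12A2, of 1424 nt at chr5:128134276-128135699, was at 0 in both controls and had 13 and 19 counts in the knockdown libraries. Its level was at least 8.06-fold higher in the knockdown libraries, taking 3 counts per library as the floor (adjusted p = 0.102). Its junction bases were listed as AA-GC, where exon circles of solute carriers carried AG-GT in 93.4% to 98.0% of counts by library and circles typed intron in 72.6% to 86.6%. The field also lists offsets and an asterisk whose meaning the sources used here do not give, so the letters alone were read. An intron was read here as the gap between neighbouring exons of called exon circles of the same host, not from an annotation. By that reading whole-intron circles were rare, with 9 found in 8 hosts, and 0 of the 9 carried AG-GT. They had 9 and 7 counts in the controls and 18 and 25 in the knockdown libraries. The SLC12A2 circle was the one with at least 10. The other 8 had 9 and 7 counts in the controls and 5 and 6 in the knockdown libraries. In the test of unequal change, SLC12A2 had the smallest p of the 22 hosts tested and an adjusted p of 0.129. Of those 22 hosts 0 passed, where 3.94% of all 2335 host genes did. At an unadjusted p under 0.05 there were 2 members, SLC12A2 and SLC4A7 (17.8% of all host genes). Without control replicate 1, 6 of 17 hosts passed (48.9% of all host genes), and without control replicate 2, 8 of 17 (50.4%). With at least 40 counts per circle 2 of 9 passed (17.5%), and with the replicate block 4 of 22 (23.1%).

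SLC20A2, a sodium-coupled phosphate importer, was at 23.1 and 14.01 per 100000 in the controls and 8.84 and 12.5 in the knockdown libraries. The knockdown levels were lower than both controls, within the spread of the fit (log2 fold change -0.44 ± 0.38 SE, adjusted p = 0.632). SLC4A5, an electrogenic sodium bicarbonate cotransporter, had 11 and 7 counts in the controls and 0 in both knockdown libraries, at least 1.96-fold lower (adjusted p = 0.316). All of its counts lay in circles that also name another gene.

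Carriers of sugars and sugar derivatives had circles in 13 of 30 genes, and the 6 tested members all had a log2 fold change below 0 (59.6% of all host genes). Of these, 2 were at an unadjusted p under 0.05 (6.19% of all host genes were lower at that level), and the median was -0.86. The 6 include SLC5A3, whose counts all name MRPS6 as well. SLC45A4 belongs to a family of proton-coupled sugar carriers. Its level was 295 and 218 per 100000 in the controls and 109 and 132 in the knockdown libraries. The groups did not overlap, and the log2 fold change was -0.76 ± 0.39 (SE; adjusted p = 0.429). A single circle, made of 1 exon of 641 nt at chr8:141253989-141254629, held 99.4% of the SLC45A4 counts and ranked 24 among all circles with a count. It had 1376 and 1212 counts in the controls and 309 and 513 in the knockdown libraries. In the fit of single circles its log2 fold change was -1.18 ± 0.37 (SE; adjusted p = 0.256). The 2 estimates differ because the fits of hosts and of circles have their own TMM factors.

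SLC37A3, a carrier of the sugar phosphate exchanger family, was at 61.2 and 50.7 per 100000 in the controls and 26.2 and 24.1 in the knockdown libraries. Each group was tight and the groups did not overlap (log2 fold change -0.84 ± 0.33 SE, adjusted p = 0.318). Its counts came from a pair of circles of 2 exons with the same acceptor at chr7:140337349 and neighbouring donors. The circle of 937 nt had 157 and 161 counts against 44 and 64 (log2 fold change -1.04 ± 0.36 SE, adjusted p = 0.302). The circle of 1142 nt had 97 and 99 against 26 and 23 (log2 fold change -1.43 ± 0.43 SE, adjusted p = 0.241). Both were lower in both knockdown libraries.

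SLC2A12, a facilitative glucose carrier, had 12 and 9 counts in the controls and 0 in both knockdown libraries, at least 2.27-fold lower (adjusted p = 0.278). SLC5A3 encodes a myo-inositol cotransporter inside the MRPS6 locus. Every circle counted under it also named MRPS6, so the names do not assign these counts to either gene. The RefSeq span of SLC5A3 ends at chr21:34106260, and the 4-exon circle given next runs past that end. A circle of 4 exons and 537 nt at chr21:34102835-34142707 had 20 and 21 counts in the controls and 1 and 3 in the knockdown libraries (log2 fold change -2.78 ± 0.68 SE, adjusted p = 0.172; -3.38 without knockdown replicate 2). A single-exon circle of 685 nt from the same acceptor, at chr21:34102835-34103519, had 0 and 3 counts in the controls and 9 and 16 in the knockdown libraries. It was named after its values were seen. The summed counts of the 685 nt circle were 12.7 times as high per library count in the knockdown libraries (95% interval 3.89 to 65.9 from counting alone, adjusted p = 0.212). That ratio comes from selected values. The circles with this common acceptor lay in different directions, a difference that was not tested, while the locus as a whole was at 17.4 and 14.2 against 9.20 and 10.2 per 100000.

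Metal ion carriers had circles in 17 of 32 genes, and 14 were tested. At an unadjusted p under 0.05, 2 were higher and 1 lower (7.58% and 6.19% of all host genes), with a median of -0.48. SLC41A2, a magnesium transporter, was at 18.8 and 48.3 per 100000 in the controls and 84.5 and 114 in the knockdown libraries. Both knockdown libraries were above both controls, which differed from each other by more than 2-fold (log2 fold change 1.82 ± 0.55 SE, adjusted p = 0.217). The adjusted p was under 0.05 with no filter, DESeq2, voom and the replicate block. It was above 0.05 in the other fits of all 4 libraries. Leaving out control replicate 1 or 2 gave a log2 fold change of 1.29 or 2.98.

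All 13 tested SLC41A2 circles had a log2 fold change above 0, and 12 had both knockdown libraries above both controls. Of all 21576 circles tested, 39.7% were above 0 and 23.2% lay above both controls. The SLC41A2 circles overlap and mostly share the acceptor at chr12:104928694, so they are not independent. The largest, a single exon of 722 nt at chr12:104927973-104928694, had 9 and 66 counts in the controls and 56 and 122 in the knockdown libraries (log2 fold change 1.92 ± 0.71 SE, adjusted p = 0.328; 1.29 or 3.59 without control replicate 1 or 2). The circle of 3 exons and 946 nt at chr12:104909655-104928694 had 4 and 15 counts against 36 and 71 (log2 fold change 3.08 ± 0.54 SE, adjusted p = 0.112; 4.01 without control replicate 2). In both, control replicate 1 was the lowest library.

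SLC39A10, which imports zinc, was at 13.5 and 22.3 per 100000 in the controls and 38.2 and 49.7 in the knockdown libraries. The groups did not overlap (log2 fold change 1.57 ± 0.42 SE, adjusted p = 0.182), and leaving out control replicate 1 or 2 gave 1.23 or 2.28. Its main circle, of 2 exons and 1227 nt at chr2:195680032-195683906, had 9 and 67 counts against 64 and 112 (log2 fold change 1.91 ± 0.70 SE, adjusted p = 0.323; 1.27 or 3.59 without control replicate 1 or 2). It held 51.4% of the host's counts. Of the 6 tested SLC39A10 circles, 3 had a log2 fold change above 0 and 3 below (39.7% and 60.3% of all circles tested). SLC30A5, which moves zinc into the secretory pathway, was at 46.6 and 64.0 per 100000 in the controls and 22.6 and 21.3 in the knockdown libraries. Here the knockdown libraries were the lower ones (log2 fold change -1.05 ± 0.37 SE, adjusted p = 0.292), and leaving out control replicate 1 or 2 gave -1.31 or -0.52.

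Of 13 tested SLC30A5 circles, 11 had both knockdown libraries below both controls and 0 had them above, where 22.9% of all circles tested lay below both. Several of these circles overlap, so they are not independent. The circle of 10 exons and 1498 nt at chr5:69104631-69121895 had 36 and 30 counts against 6 and 7 (log2 fold change -1.81 ± 0.54 SE, adjusted p = 0.236). The circle of 5 exons and 957 nt at chr5:69115237-69118628 had 6 and 22 counts against 0 and 1. Its summed counts were 18.3 times as high per library count in the controls (95% interval 3.03 to 749 from counting alone, adjusted p = 0.244). This circle was named for its small p, so the ratio comes from selected values. Its log2 fold change was -3.05 without knockdown replicate 1, and without knockdown replicate 2 the remaining knockdown library is at 0.

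SLC39A8, an importer of zinc and manganese, was at 6.77 and 11.3 per 100000 in the controls and 10.96 and 13.1 in the knockdown libraries, and the groups overlapped (log2 fold change 0.69 ± 0.45 SE, adjusted p = 0.502). Leaving out control replicate 1 or 2 gave 0.34 or 1.41. It was among the 4 hosts with the smallest p for unequal change of circles (adjusted p = 0.320). From 1 shared donor, the circle of 1427 nt had 7 and 24 counts against 20 and 35 (log2 fold change 1.45 ± 0.52 SE, adjusted p = 0.320), and the circle of 1006 nt had 21 and 25 against 8 and 13 (log2 fold change -0.59 ± 0.46 SE, adjusted p = 0.531). Per 100000, the knockdown levels were above both controls in the first and below both in the second.

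**Figure D4:**
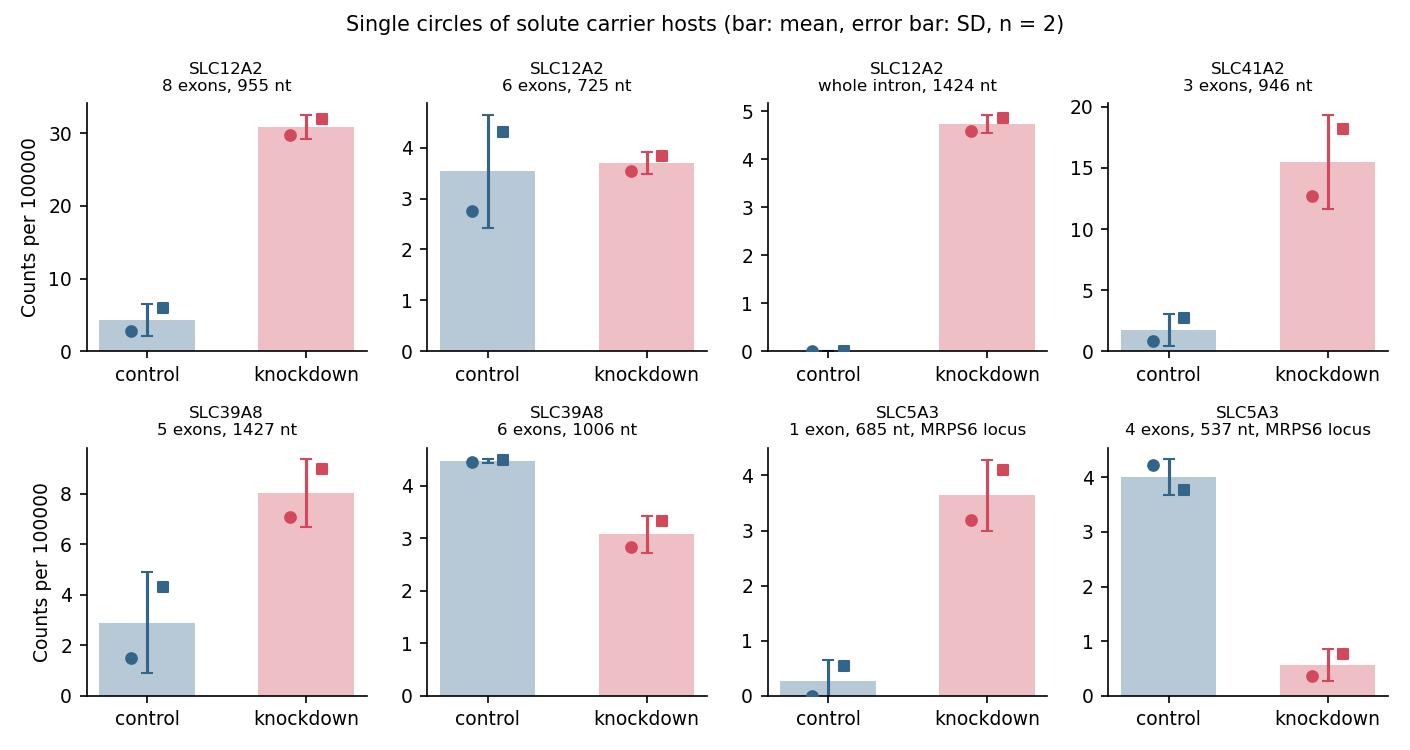
Bars give the mean and error bars the SD (n = 2) of 8 single circles in counts per 100000 on linear axes from 0, with a circle for replicate 1 and a square for replicate 2 of each group. The SLC12A2 circles of 955 nt and of 1 whole intron are high in both knockdown libraries while that of 725 nt overlaps between groups, and the paired circles of SLC39A8 and of SLC5A3 in the MRPS6 locus lie in opposite directions.

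Mitochondrial carriers had circles in 24 of 48 genes. Of 17 tested, 2 were higher and 2 lower at an unadjusted p under 0.05 (7.58% and 6.19% of all host genes), and the median was -0.78. SLC25A32, which brings folate and flavin adenine dinucleotide into mitochondria, was at 49.5 and 72.8 per 100000 in the controls and 89.8 and 93.5 in the knockdown libraries. The knockdown libraries were above both controls (log2 fold change 0.87 ± 0.40 SE, adjusted p = 0.388), and leaving out control replicate 1 or 2 gave 0.57 or 1.46. Every SLC25A32 circle also named the overlapping gene ENSG00000285982, so the host is uncertain. Among its 14 tested circles, 8 had a log2 fold change above 0 and 6 below (39.7% and 60.3% of all circles tested).

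SLC25A16, linked to the mitochondrial supply of coenzyme A, was at 15.0 and 38.1 per 100000 in the controls and 17.3 and 17.4 in the knockdown libraries. The groups overlapped because the controls differed (log2 fold change -0.36 ± 0.51 SE, adjusted p = 0.784), and leaving out control replicate 1 or 2 gave -0.89 or 0.78. SLC25A46, an outer membrane protein of mitochondria that takes part in their dynamics, had 2 and 13 counts in the controls and 21 and 22 in the knockdown libraries. It was higher in both knockdown libraries (log2 fold change 2.43 ± 0.78 SE, adjusted p = 0.247), and leaving out control replicate 1 or 2 gave 1.68 or 4.37. SLC25A27, an uncoupling protein family member, had 38 and 63 counts against 4 and 11, and 67.2% of its counts were in circles typed intron. Its most used donor, at chr6:46681639 with 30.2% of its counts, lies past the RefSeq gene end at 46678190. Both knockdown libraries were lower (log2 fold change -1.85 ± 0.56 SE, adjusted p = 0.221), but among exon circles fitted alone it was -0.63 (adjusted p = 0.746). It ranged from -2.48 to -1.28 with 1 library left out. SLC25A24, an exchanger of ATP-magnesium for phosphate, had 24 and 64 counts against 16 and 10, and overlapped per 100000 (log2 fold change -0.79 ± 0.63 SE, adjusted p = 0.595). It was among the 4 hosts with the smallest p for unequal change of circles, with an adjusted p of 0.292. Leaving out control replicate 1 or 2 gave -1.32 or 0.19, and leaving out knockdown replicate 1 gave -1.37.

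Some members span a microRNA gene. Mature sequences from the RefSeq table (GRCh38.p14) are shown for the pair of hosts with the most such counts, because whether the hairpin lies inside a circle depends on which blocks the circle keeps. Capitals mark the seed, bases 2 to 8.
hsa-miR-591: aGACCAUGgguucucauugu
hsa-miR-12122: uGUCACAGauggccggaagagacuc
The mature sequence of hsa-miR-591 lies at chr7:96219722-96219741 on the minus strand within SLC25A13, the mitochondrial exchanger of aspartate and glutamate. The junctions of 5 circles with 19 counts enclose it (7, 7, 3 and 2 by library), and 0 of the 5 keep it in a listed block, so it lies outside the stretches they keep. That of hsa-miR-12122 lies at chr20:49863869-49863893 within SLC9A8, an exchanger of sodium and protons. There 3 circles with 13 counts enclose it, and 2 of them, with 4 counts, keep it in a block. The seeds of these microRNAs differ. The counts are too few to compare the groups.

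Amino acid carriers had circles in 27 of 59 genes, the largest number of any class. Of the 17 tested, 1 was higher and 0 were lower at an unadjusted p under 0.05 (7.58% and 6.19% of all host genes), and the median was -0.87. SLC38A1, a sodium-coupled importer of glutamine and other neutral amino acids, was at 80.0 and 58.9 per 100000 in the controls and 51.3 and 57.6 in the knockdown libraries. The knockdown levels were just below the lower control, but the log2 fold change of the fit was -0.02 ± 0.34 (SE; adjusted p = 0.979) and was 0.07 with DESeq2 size factors. Its main circle, of 4 exons and 522 nt at chr12:46229153-46243314, had 70 and 229 counts against 79 and 117 and overlapped between groups (log2 fold change 0.06 ± 0.44 SE, adjusted p = 0.957; -0.34 or 0.82 without control replicate 1 or 2). In control replicate 1 the acceptor of that circle held 23.8% of SLC38A1 counts, against 74.7%, 62.1% and 63.6% in control replicate 2 and the knockdown libraries, and the remainder there was spread over many rare circles. Of all SLC38A1 counts, 64.5% also named the overlapping gene ENSG00000274591. With only circles that name 1 gene, the log2 fold change of SLC38A1 was -0.62 (adjusted p = 0.722).

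SLC38A2, a carrier of the same family, was at 16.5 and 9.70 per 100000 in the controls and 18.04 and 21.8 in the knockdown libraries. It was higher in both knockdown libraries (log2 fold change 0.95 ± 0.36 SE, adjusted p = 0.313). No circle dominated it: 72 circles shared 268 counts and the largest held 7.84%. SLC1A3, a glutamate importer, was named after its values were seen. It had 168 counts in control replicate 1 and 19, 20 and 24 in the other libraries, spread over 75 circles, and 35.9% of them were of intron type. Of the 42 hosts with at least 40 counts, 4 were at least 4 times as high in control replicate 1 as in control replicate 2, and 1 was the other way.

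Carriers of nucleotide sugars, nucleosides, vitamins and cofactors had few counts but held the hosts with the smallest p-values. Of 3 tested nucleotide sugar carriers 1 was higher and 0 lower at an unadjusted p under 0.05 (median log2 fold change 0.17), and of 5 tested nucleoside, vitamin and cofactor carriers 1 was higher and 1 lower (median -1.39). At that level 7.58% of all host genes were higher and 6.19% lower. SLC33A1, which carries acetyl coenzyme A into the endoplasmic reticulum, had the smallest adjusted p of any member host. It was at 5.08 and 5.03 per 100000 in the controls and 14.1 and 19.97 in the knockdown libraries. The controls were nearly equal and both knockdown libraries were above them (log2 fold change 2.07 ± 0.40 SE, adjusted p = 0.0787). The adjusted p of SLC33A1 was under 0.05 with no filter, both stricter filters, DESeq2, voom and the replicate block. It was above 0.05 in the other fits of all 4 libraries. All of its circles also named ENSG00000284952. The circle of 3 exons and 978 nt at chr3:155829688-155842619 had 2 and 0 counts in the controls and 13 and 28 under knockdown. Its summed counts were 31.3 times as high per library count in the knockdown libraries (95% interval 8.14 to 267 from counting alone, adjusted p = 0.144). This circle was named for its small p, so the ratio comes from selected values. Leaving out control replicate 2 gave a log2 fold change of 3.59, while control replicate 2 alone is at 0. A circle of 5 exons and 903 nt from the same acceptor had 0 and 17 counts against 8 and 12 and overlapped between groups.

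SLC35A3, which carries UDP-N-acetylglucosamine into the Golgi, was at 9.10 and 6.83 per 100000 in the controls and 19.5 and 19.5 in the knockdown libraries. It was higher in both knockdown libraries (log2 fold change 1.61 ± 0.35 SE, adjusted p = 0.113). All of its circles also named another gene, mostly ENSG00000283761. The single-exon circle of 355 nt at chr1:100023065-100023419 was at 0 in both controls and had 6 and 9 counts in the knockdown libraries, at least 3.77-fold higher (adjusted p = 0.181). SLC19A2, a thiamine importer, was at 6.99 and 6.65 per 100000 in the controls and 2.12 and 2.05 in the knockdown libraries. Each group was tight and the knockdown libraries were lower (log2 fold change -1.39 ± 0.53 SE, adjusted p = 0.313).

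The remaining classes were small. Of 5 tested carriers of monocarboxylates and dicarboxylates, 0 were past an unadjusted p of 0.05 in either direction (7.58% of all host genes were higher and 6.19% lower). SLC16A10, a carrier of aromatic amino acids in that family, had 73 and 74 counts in the controls and 22 and 28 in the knockdown libraries. All 3 of its tested circles start at the acceptor at chr6:111172695 and lay below both controls (22.9% of all circles tested). That of 2 exons and 599 nt had 28 and 29 counts against 5 and 7 (log2 fold change -1.70 ± 0.50 SE, adjusted p = 0.236). Of 4 tested carriers of organic ions and bile acids 1 was lower (6.19% of all host genes), and of 2 tested lipid and 2 tested vesicular carriers 0 passed that level.

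**Figure D5:**
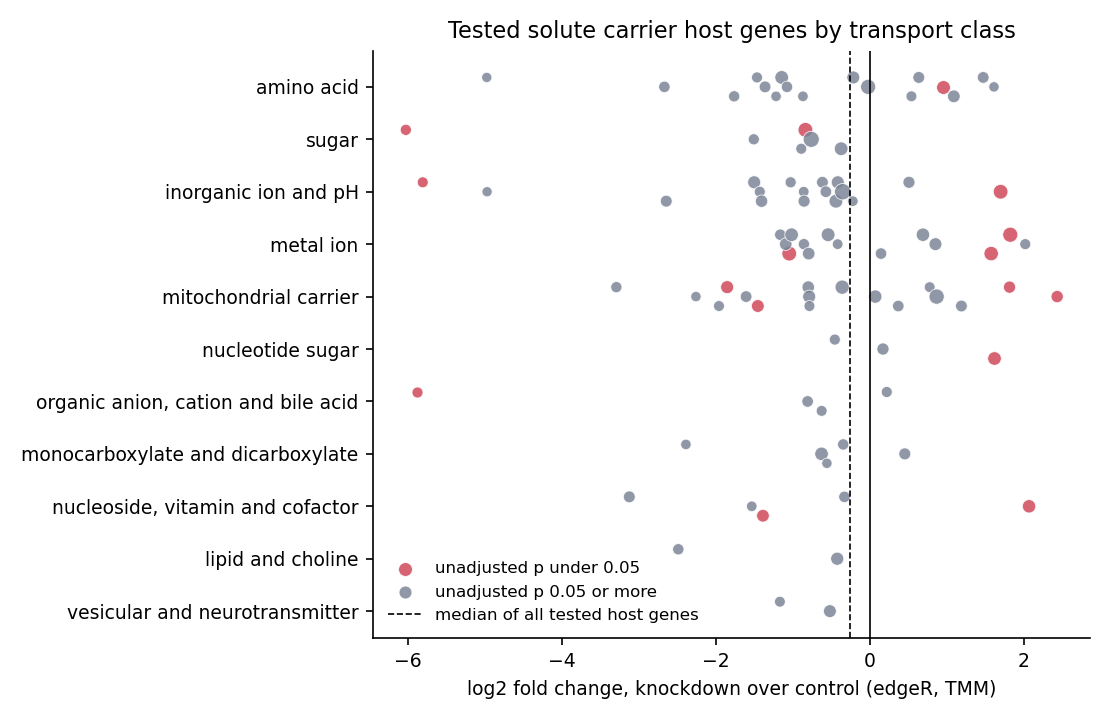
Each point is 1 of the 92 tested hosts, placed by its log2 fold change (knockdown over control) and its transport class, with point size growing with the log of its total count and red for an unadjusted p under 0.05. The dashed line is the median of all tested host genes, -0.26, and the median of every class but that of nucleotide sugars lies to its left. Red points lie on both sides in the inorganic ion, metal ion and mitochondrial classes. The same holds for the class of nucleosides, vitamins and cofactors.

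Other membrane transport genes were counted for comparison. Of 12 tested ion-pumping ATPases 0 were higher and 2 lower at an unadjusted p under 0.05 (median log2 fold change -0.48). Of 9 tested ABC transporters 1 was higher and 0 lower (median 0.34). Of 6 tested solute carrier genes whose symbols have the letter C or a later one, 1 was higher and 0 lower (median -0.63), and of 9 tested MFSD genes 0 were higher and 1 lower (median -0.46). At that level 7.58% of all host genes were higher and 6.19% lower, and their median was -0.26. Differences between these groups and the solute carriers were not tested.

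When circles were tested one by one with edgeR's quasi-likelihood test, 0 of the 209 members passed an adjusted p of 0.05, as did 0.0% of all 21576 circles tested. At an unadjusted p under 0.05, 19 were higher (9.29% of all circles) and 22 lower (4.26%). DESeq2 called 9 members (4.6% of all circles) and limma voom 5 (1.37%). Exon circles fitted alone gave 2 (1.7%), no filter 4 (0.248%), at least 5 counts in 2 libraries 15 (12.1%), at least 40 counts 4 (11.4%) and the replicate block 17 (7.51%). Without control replicate 1, 54 of 147 tested members passed (28.2% of all circles), and without control replicate 2, 79 of 138 passed (43.4%). The median log2 fold change was -0.85 over members and -0.41 over all circles. A group was at 0 in 37 member circles, and with 35 of them set to their bound and the 2 that have none set to 0 the median was -0.54. Of 57 member circles with at least 40 counts, 14 had both knockdown libraries above both controls (24.6%, against 29.7% of all such circles) and 28 had them below (49.1%, against 28.9%). These 57 circles came from 21 hosts and many share an end, so they are not independent.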

How the data were processed

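Libraries were made from total RNA by reverse transcription with Induro and random primers, amplification with phi29 polymerase and debranching with T7 endonuclease I, per the labels' protocols. No molecular identifiers are described, so counts are not independent molecules, and floors cover counting error only. Ratios of summed counts and their exact binomial intervals pool the libraries of a group and leave out the spread between them. The authors deposited raw counts per back-splice position with isoforms collapsed. CIRI-long, a circle caller for long reads, is named in the table's columns. The build GRCh38.p14 and DESeq2 are named in the submitters' processing notes. The versions, the aligner and the filters were not given in the sources used here. A deposited table of scaled values was not used.

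Counts of circles not typed antisense were summed under every gene a circle names. Circles that name several genes (16.4% of member counts) therefore count under each of them, and 393 antisense rows that name a member were left out. Rows that reached 10 counts in total were tested with edgeR 4.0.16 in R 4.3.3 (quasi-likelihood test, default dispersion method, TMM, library sizes over all rows, Benjamini-Hochberg over the whole table, threshold 0.05). The SE is the absolute log2 fold change divided by the square root of F. Unequal change within a host was tested with edgeR's diffSpliceDGE on circles that name 1 gene. Groups came from the sample titles. Exact permutation tests (two-sided) served for single values. All 148 hosts matched the RefSeq table of GRCh38.p14 by symbol. Some member circles did not lie within the RefSeq span of their host extended by 1000 nt. They numbered 99 in 40 hosts, with 483 counts, and were kept.

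Named hosts were the 12 with the most counts, the 6 higher and 6 lower with the smallest p, and the 4 with the smallest p for unequal change. Named circles were the 10 with the most counts and the 5 higher and 5 lower with the smallest p. Further circles of named hosts were chosen after their values were seen. Members, lists and rules were chosen with earlier results of these data known. Alternatives covered scaling, count filters, DESeq2 1.42.0, limma 3.58.1 voom, the newer dispersion method of edgeR, gene assignment, circle type, single libraries and the replicate number as a block.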

Additional observations from a re-analysis of the deposited data

How the results depend on the processing

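With 2 libraries a group and unlike controls, the number of calls moved with most settings. Solute carrier hosts past the threshold numbered 0, but 6 unfiltered, 1 where 2 libraries had to hold 5 counts, 1 with at least 40 counts, 3 with DESeq2, 5 with voom and 6 with the replicate block. They ranged from 0 to 35 when 1 library was left out. Circles past the threshold numbered 0, but 4 unfiltered, 15 where 2 libraries had to hold 5 counts, 4 with at least 40, 9 with DESeq2, 5 with voom, 17 with the replicate block and 2 among exon circles, and from 0 to 79 with 1 library left out. Hosts with unequal change numbered 0, but 2 with at least 40 counts per circle, 4 with the replicate block and from 0 to 8 with 1 library left out. The other scalings, the newer dispersion method and the other gene assignments kept these counts at 0 where they were run. The cause was not tested.

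The labels do not say whether libraries with the same replicate number belong together. Their deviations from the group means correlated at 0.0857 over host genes and 0.0706 over circles. With 2 libraries a group these values cannot settle whether such libraries were paired, and the main fits used no block. Within replicate number 2 the ratio of different circles at equal depth was 1.07 and the difference in intron share 1.30 percentage points, and within number 1 the length difference was 39 nt. With 1 library left out, the median log2 fold change of hosts ranged from -0.71 to -0.035, the equal-depth ratio from 0.647 to 1.03, the length difference from -110.5 to 19.5 nt and the difference in intron share from -7.91 to 1.43 points. The length difference was 28.5 nt for circles that name 1 gene.

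Among single features, the log2 fold change of SLC38A1 was 0.075 with DESeq2 size factors, 0.075 with DESeq2, 0.069 among exon circles and -0.62 with only circles that name 1 gene, and its main circle was at -0.12 unfiltered. With 1 library left out the log2 fold changes ranged from -0.13 to 0.13 for SLC38A1, from -0.34 to 0.82 for its main circle, from -0.61 to 0.18 for SLC4A7, from -0.66 to 0.11 for its 18-exon circle, from -0.89 to 0.78 for SLC25A16 and from -1.37 to 0.19 for SLC25A24. The 54 hosts under 10 counts were not tested.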
